A study of Mus musculus with 53 samples.

Results

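Imprinted genes were followed across the hypothalamus of mice that lack the expressed copy of Nnat. The set held 42 imprinted genes, chosen by name from known imprinted clusters, of 53379 gene identifiers in the count tables, and 41 of the 42 had a count in at least 1 library. Snurf, which had none, shares all of its 216 exon bases with Snrpn. The question was whether loss of the paternal Nnat allele moved other imprinted genes.

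RNA was measured in laser-captured paraventricular nucleus (PVN) and arcuate nucleus (ARC) of C57BL/6 mice, whose age the protocol gives as 13 to 14 weeks. Nnat+/+ mice were compared with Nnat+/-p littermates, which took a null allele from a heterozygous father and a wild type allele from the mother. The male PVN on chow was used in 3 Nnat+/+ mice (31.4 to 33.5 g), 3 non-obese Nnat+/-p mice (27.4 to 34.3 g) and 4 obese Nnat+/-p mice (38.8 to 46.5 g). On a high-fat diet (HFD, 45% fat), the male PVN was used in 6 Nnat+/+ and 3 Nnat+/-p mice. These weighed 37.4 to 42.9 g and 38.2 to 43.9 g. The female PVN, on chow, came from 4 Nnat+/+ mice (24.1 to 24.6 g), 3 non-obese Nnat+/-p mice (20.4 to 23.9 g) and 3 obese Nnat+/-p mice (31.5 to 33.35 g). The male ARC on chow was used in 2 Nnat+/+, 4 non-obese and 4 obese Nnat+/-p libraries, and on HFD in 6 Nnat+/+ and 4 Nnat+/-p libraries. The null allele is carried by every cell, the Nnat+/-p mice on HFD were not divided by weight, and many of the weights recur in both nuclei of the males. Within a group, replicates 39 and 40 of the non-obese ARC share 34.3 g, and replicates 1 and 2 of the female Nnat+/+ PVN share 24.1 g. The labels do not say whether libraries of the same weight came from the same mouse. Each of the 49 libraries used held 1479953 to 30228973 counts on genes.

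Most genes are read from the copies of both parents. An imprinted gene is read mainly or solely from the copy of one parent, because DNA methylation set in the egg or the sperm marks that copy, and imprinted genes lie in clusters in which a single control region can set the reading of several neighbours. Many are strongly expressed in the hypothalamus, and several, among them the genes of the Prader-Willi region, are known for their part in growth and feeding. Nnat, which encodes a small membrane protein of the endoplasmic reticulum, is read from the paternal copy and lies on chromosome 2 from 157560078 to 157562522 (GRCm38, plus strand). It sits within Blcap (157556362 to 157571274, minus strand), with which it shares 0 exon bases.

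A promoter sequence from RefSeq (GRCm38.p6) was found for 35 of the 42 genes, as 250 bases before to 50 after the start. The 4 promoters below are shown because Nnat is the altered gene, Nap1l5 was the most abundant of the set per length, and Plagl1 and Meg3 differed between the nuclei. Capitals mark TGCCGC, the letters bound by ZFP57 when methylated, or its complement GCGGCA. ZFP57 guards methylation at imprint control regions. For a gene with several promoters, the one with the most matches to these letters was taken, so the choice favours a match. The Plagl1 promoter shown lies inside the annotated gene, which starts at 13060504.
Nnat, chr2:157559828-157560127, plus strand: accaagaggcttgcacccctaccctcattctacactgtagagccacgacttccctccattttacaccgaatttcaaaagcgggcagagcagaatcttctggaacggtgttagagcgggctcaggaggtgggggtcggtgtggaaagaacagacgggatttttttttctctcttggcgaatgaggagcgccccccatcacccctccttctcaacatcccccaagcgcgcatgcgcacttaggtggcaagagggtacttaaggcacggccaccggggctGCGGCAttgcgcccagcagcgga
Nap1l5, chr6:58907077-58907376, minus strand: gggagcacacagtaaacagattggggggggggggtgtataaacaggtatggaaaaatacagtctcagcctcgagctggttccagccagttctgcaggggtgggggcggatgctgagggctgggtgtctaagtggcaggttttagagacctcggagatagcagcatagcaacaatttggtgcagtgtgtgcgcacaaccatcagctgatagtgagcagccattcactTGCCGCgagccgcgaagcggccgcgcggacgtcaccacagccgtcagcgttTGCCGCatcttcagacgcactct
Plagl1, chr10:13090582-13090881, plus strand: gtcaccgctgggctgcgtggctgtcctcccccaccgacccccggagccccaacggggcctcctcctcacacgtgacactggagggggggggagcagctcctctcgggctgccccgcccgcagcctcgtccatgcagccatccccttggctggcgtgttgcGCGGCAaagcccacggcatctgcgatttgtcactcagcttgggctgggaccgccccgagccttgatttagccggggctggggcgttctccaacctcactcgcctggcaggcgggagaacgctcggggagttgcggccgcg
Meg3, chr12:109540746-109541045, plus strand: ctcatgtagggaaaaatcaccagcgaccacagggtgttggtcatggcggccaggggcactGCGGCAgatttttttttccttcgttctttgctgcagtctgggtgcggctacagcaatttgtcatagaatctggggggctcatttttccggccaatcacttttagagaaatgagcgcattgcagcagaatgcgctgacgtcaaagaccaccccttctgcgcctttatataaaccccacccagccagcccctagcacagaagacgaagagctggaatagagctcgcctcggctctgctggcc
The letters TGCCGC, searched on both strands, stood in a promoter of 13 of the 35 genes (37.1%), against 13.1% of all 27025 genes, and in 14 of their 51 promoters (27.5%), against 11.6% of all 32851 promoters of the same length. For GCCATNTT, the letters of YY1, 2 of the 35 genes held a match (5.71%), Mkrn3 and Ube3a, against 6.96% of all genes, and 3.92% of their promoters did, against 6.05% of all promoters. Neither motif contains the other, and a match describes the sequence and not a bound site.

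The set spanned several orders of magnitude in level. Levels between genes are given as counts per 1000000 counts on genes (CPM), divided by the kilobases of annotated exon. Ribosomal RNA made up 28.6 to 48.5% of these counts in ARC, 26.4 to 37.4% in male PVN and 15.2 to 39.1% in female PVN libraries. This share enters every CPM, and its part in differences of level was not tested. In the 13 Nnat+/+ PVN libraries Nap1l5, which encodes a nucleosome assembly protein-like factor, stood highest at 612 ± 219 CPM per kb (SD, n = 13). Nnat followed at 254 ± 44.1 CPM per kb, then Ndn, of the Prader-Willi region, at 171 ± 55.4 CPM per kb. The zinc finger gene Peg3 had 140 ± 37.3 CPM per kb and Gnas, which encodes the stimulatory G protein alpha subunit, 116 ± 36.7 CPM per kb. Of these neighbours only Nap1l5 and Nnat did not overlap in the PVN libraries. The ARC gave the same first 4 genes, with Nap1l5 at 318 ± 67.4 CPM per kb (SD, n = 8), Nnat at 184 ± 49.8, Ndn at 105 ± 29.4 and Peg3 at 85.1 ± 16.2 CPM per kb, each overlapping the next.

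At the other end stood several genes known for high expression before birth. Next to Snurf at 0, the growth-related noncoding RNA H19 had 0.024 CPM per kb in the PVN and 0.014 in the ARC, and no count in 21 of 29 PVN and 13 of 20 ARC libraries. Dio3, Mkrn3, Phlda2 and Igf2 had 0.154, 0.163, 0.221 and 0.359 CPM per kb in the PVN, and 0.084, 0.181, 0.030 and 0.127 CPM per kb in the ARC. Neighbours in the order from H19 to Igf2 overlapped over their libraries in both nuclei. The annotated exons of Igf2 share 3596 bases with Gm49394 on the same strand, those of Mest and Copg2 share 912 bases on opposite strands, and those of Snhg14 and Ube3a share 1803. How the counting treated such bases and strand is not given in the sources used here. Snurf, whose exon bases all lie in those of Snrpn on the same strand, had no count. The levels of these pairs may therefore include reads of the partner or lack reads of the shared bases, and for Igf2 the level per kb may be too low.

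**Figure D1:**
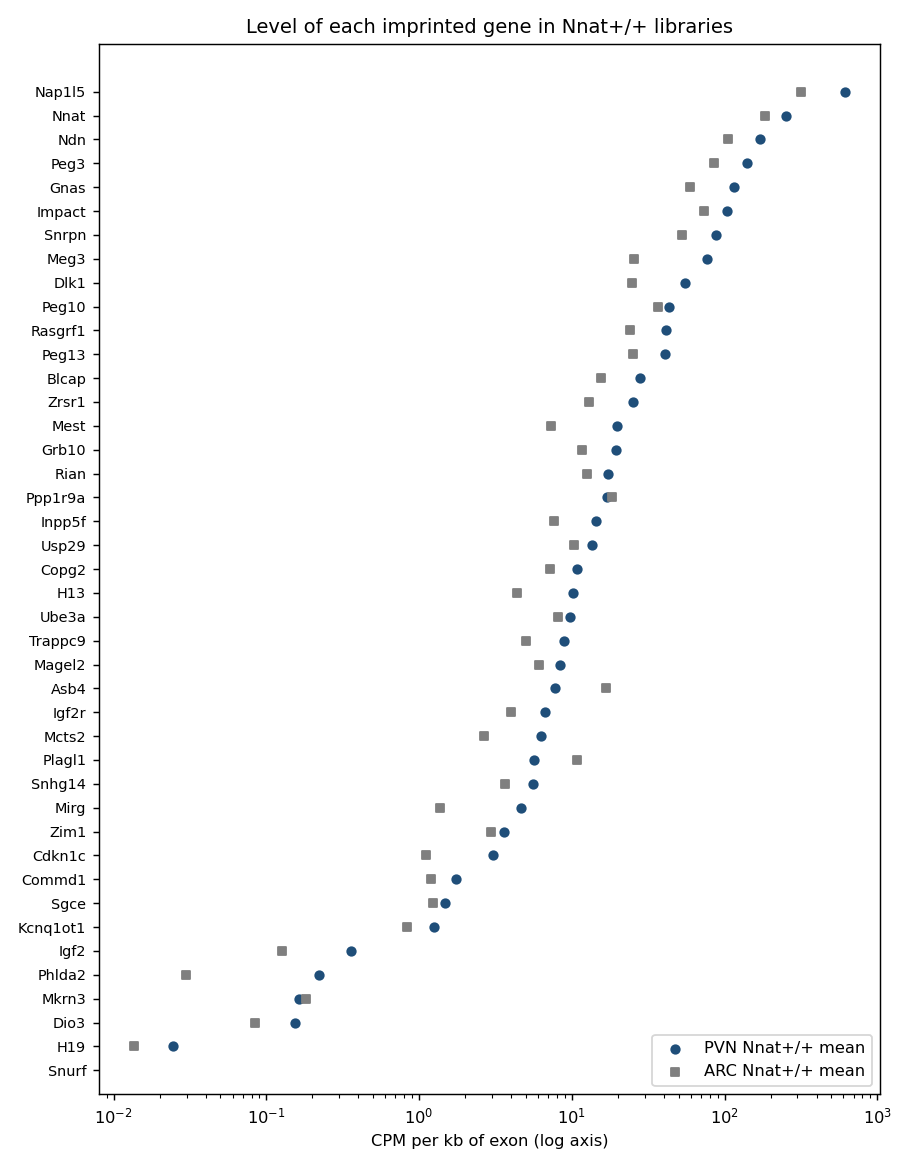
Mean level of each imprinted gene in Nnat+/+ libraries, as CPM per kb of exon on a log axis (circles, 13 PVN libraries; squares, 8 ARC libraries). Nap1l5, Nnat, Ndn and Peg3 were the first 4 in both nuclei, H19 was lowest of the genes with counts, and Snurf at 0 is not drawn.

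Some libraries stood apart. Replicate 15, labelled male PVN Nnat+/+ on chow, had 0.163 CPM of Avp and 0.489 of Sim1, both PVN markers, where the other male PVN libraries apart from replicate 24 had 66.1 to 507 and 40.6 to 206 CPM. Replicate 24, labelled male PVN Nnat+/+ on HFD, had 0.896 CPM of Avp and 15.9 of Sim1. Replicate 15 also had 98.4 CPM of Pomc, an ARC marker at 0.288 to 14.3 CPM in the other male PVN libraries. Replicate 35, labelled male ARC Nnat+/+ on chow and left out for its low count, had 203 CPM of Avp, 40.5 CPM of Sim1 and no count of Pomc, and shares its labelled weight of 32.45 g with replicate 15. Female replicates 2, 3 and 10 had 12685 to 16033 CPM of the nuclear RNA Malat1 against 2269 to 4297 CPM in the other female libraries, and 3546 to 4168 CPM of the member Meg3 against 517 to 1159. Values without these libraries are given where they bear on a result.

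Nnat itself was nearly absent from every Nnat+/-p library. In the PVN its level was 326 to 584 CPM (median 471) in 13 Nnat+/+ libraries and 1.15 to 13.7 CPM (median 3.74) in 16 Nnat+/-p libraries. In the ARC it was 224 to 481 CPM (median 323) in 8 Nnat+/+ and 0.268 to 4.72 CPM (median 2.22) in 12 Nnat+/-p libraries. The genotypes did not overlap in either nucleus. Of the libraries left out, female replicate 5 (Nnat+/+) held 2302 counts in all and none of Nnat.

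The level left in Nnat+/-p mice was 1.32% of the Nnat+/+ mean in the male PVN on chow (5.55 ± 3.70 against 419 ± 81.1 CPM, SD), 0.746% in the male PVN on HFD, 0.892% in the female PVN, 0.820% in the ARC on chow and 0.664% in the ARC on HFD. Each of these 5 comparisons gave the smallest two-sided p its exact permutation test allows, from 0.00476 to 0.0222. The fitted log2 fold change was −6.67 (SE 0.28) in the PVN over sexes and diets and −7.28 (SE 0.25) in the ARC (edgeR quasi-likelihood test, Benjamini-Hochberg adjusted p = 4.77e-22 and 1.36e-20). Within the smaller comparisons it ran from −8.26 (SE 0.40), in non-obese mice of the ARC, to −5.87 (SE 0.41), in obese mice of the male PVN. Obese and non-obese Nnat+/-p mice were not called different in residual Nnat (edgeR, Benjamini-Hochberg adjusted p = 1.00 in each of the 3 tests), with log2 differences of 1.74 (SE 0.46) in the ARC, −1.66 (SE 0.58) in the female PVN and 0.77 (SE 0.45) in the male PVN. Replicate 10, a non-obese female, had the highest level of Nnat left, 13.7 CPM. Without that library the non-obese log2 fold change against Nnat+/+ went from −6.12 to −7.44, and without replicates 2, 3 and 10 it was −7.52, beside −7.82 in obese females (−7.79 with them).

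Blcap, the gene that encloses Nnat and encodes a protein known for reduced expression in bladder cancer, did not follow it. In the PVN Blcap stood at 45.0 to 125 CPM (median 92.7) in Nnat+/+ and at 45.9 to 161 CPM (median 78.6) in Nnat+/-p libraries, and in the ARC at 28.7 to 65.1 CPM (median 49.2) and 38.6 to 86.6 CPM (median 58.4). The genotypes overlapped throughout in both nuclei, with sexes and diets pooled. The log2 fold change was 0.04 (95% interval −0.26 to 0.35) in the PVN and −0.03 (−0.30 to 0.24) in the ARC, which as a ratio is 0.833 to 1.27 and 0.813 to 1.18. In the 8 smaller genotype comparisons its log2 fold change ran from −0.26 in obese females to 0.20 in non-obese females, and none was called.

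**Figure D2:**
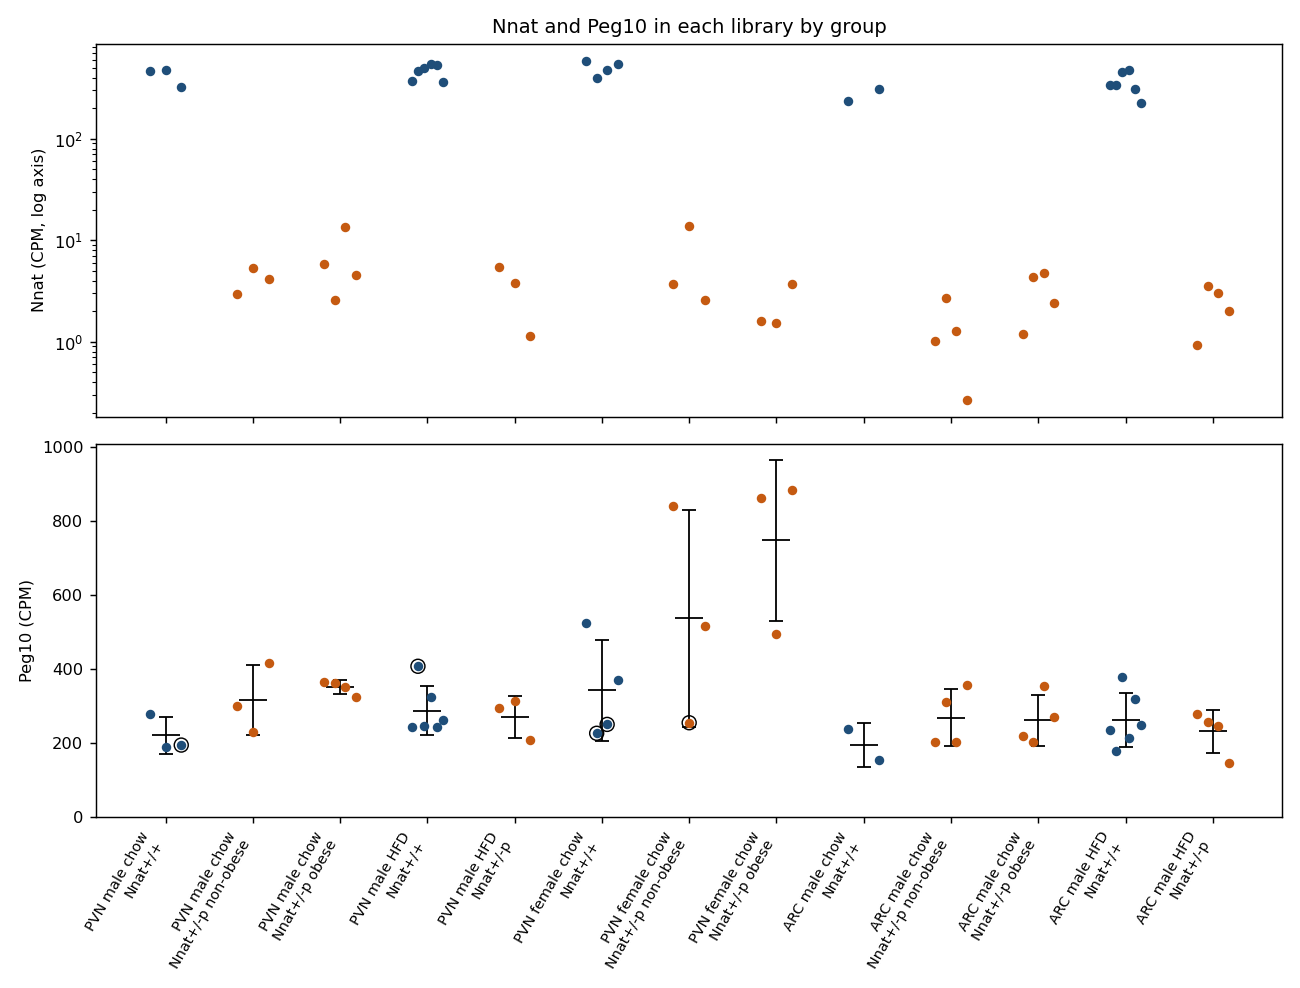
Nnat (CPM, log axis, points only) and Peg10 (CPM) in each library by group, blue for Nnat+/+ and orange for Nnat+/-p, with the mean (bar) and SD (whiskers) in the Peg10 panel and open circles around replicates 2, 3, 10, 15 and 24. Nnat is at or below 13.7 CPM in every Nnat+/-p library and at or above 224 CPM in every Nnat+/+ library, while the Peg10 points of the genotypes overlap except between obese and Nnat+/+ males on chow in the PVN.

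Beyond Nnat, edgeR called no imprinted gene of the set between genotypes. A call was an adjusted p under 0.25, the threshold that the study used with DESeq2. Over the PVN of both sexes and diets, 0 of 37 members tested were called, where 0.0555% of all 19824 genes tested were. In the ARC, 0 of 36 members were called, against 0.0127% of 15753 genes. At an unadjusted p under 0.05 there was 1 member in the PVN, Peg10, and none in the ARC, beside 5.2% and 3.3% of all genes. The members' median log2 fold change was 0.07 in the PVN (−0.03 over all genes), with 23 of 37 above 0, and 0.04 in the ARC (−5.05e-05 over all genes), with 23 of 36 above 0. With total counts as the scale the ARC medians were 0.16 over members and 0.14 over all genes. DESeq2, the tool of the study, called Peg10 in the PVN and no member in the ARC. Over all genes it called more than edgeR in both nuclei.

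These intervals were narrow enough to bound most members. The 95% interval of the genotype difference lay within a 2-fold change either way for 33 of 37 members in the PVN and 33 of 36 in the ARC, where 43.8% and 57.6% of all genes tested had such an interval. The exceptions were the low-count Cdkn1c, Mcts2 and Igf2 in both nuclei and Mkrn3 in the PVN. An interval within 1.5-fold was reached by 22 members in the PVN and 29 in the ARC. The median standard error was 0.17 log2 units for members against 0.44 for all genes in the PVN, and 0.14 against 0.30 in the ARC. Members and all genes were not matched by level in these comparisons.

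The members were also counted by the parental copy that each is listed as read from. The copy in use was not measured here, and some members were put in neither class. Of the genes listed as paternal, 14 of 20 had a log2 fold change above 0 in the PVN (median 0.08) and 12 of 19 in the ARC (median 0.04). Of those listed as maternal it was 6 of 13 in the PVN (median −0.01) and 9 of 13 in the ARC (median 0.04). Over all genes tested it was 46.5% in the PVN and 50% in the ARC. No difference between the parental classes was tested.

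**Figure D3:**
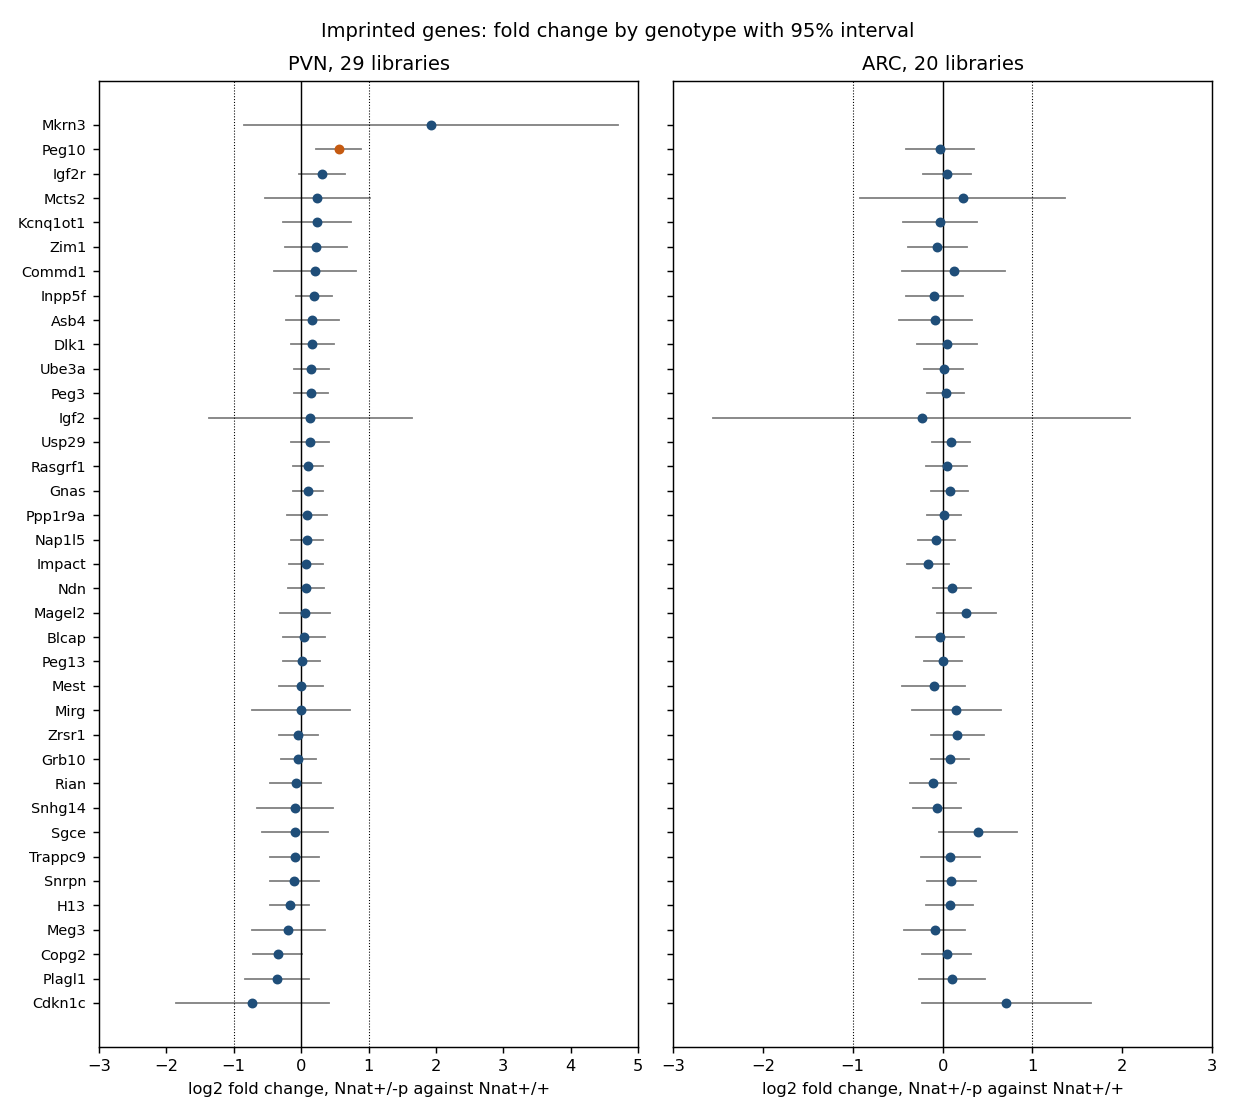
Log2 fold change of Nnat+/-p against Nnat+/+ with its 95% interval for each member tested, in the PVN (29 libraries) and the ARC (20 libraries), without Nnat. Dotted lines mark a 2-fold change, and Peg10 in the PVN, in orange, is the only member with an unadjusted p under 0.05.

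The clusters are described in turn by their levels, since no fold change in them was called. Medians and ranges in CPM pool the libraries of a nucleus over sex and diet, in unequal shares for the genotypes. The ARC held 2 chow and 6 HFD Nnat+/+ libraries beside 8 chow and 4 HFD Nnat+/-p libraries. Overlap of such ranges is therefore no test of genotype, while the fold changes over a cluster allow for sex and diet. In the Prader-Willi and Angelman region Ndn, which encodes a MAGE family protein, stood at 368 to 1009 CPM (median 583) in Nnat+/+ and 272 to 1302 CPM (median 599) in Nnat+/-p PVN libraries. In the ARC it was 232 to 531 CPM (median 408) and 390 to 602 CPM (median 439). Its neighbour Magel2, also a MAGE gene, had medians of 38.9 and 38.3 CPM in the PVN and 23.9 and 32.8 CPM in the ARC. The genotypes overlapped for both genes in both nuclei. Snrpn, which encodes a splicing protein, had medians of 174 and 170 CPM in the PVN, and the maternally read ubiquitin ligase gene Ube3a of 198 and 210 CPM. Mkrn3, known for the timing of puberty, was without a count in 8 of 13 Nnat+/+ and 9 of 16 Nnat+/-p PVN libraries. Over the cluster, log2 fold changes ran from −0.10 to 1.92 in the PVN (6 members tested, Mkrn3 the highest) and from −0.06 to 0.26 in the ARC (5 members).

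In the Dlk1 and Dio3 domain the paternally read Dlk1, which encodes a Notch-like membrane protein, stood at 117 to 498 CPM (median 320) in Nnat+/+ and 155 to 926 CPM (median 290) in Nnat+/-p PVN libraries. The maternally read noncoding RNAs Meg3, Rian and Mirg had PVN medians of 965 and 992, 283 and 257, and 21.0 and 26.0 CPM in Nnat+/+ and Nnat+/-p mice. In the ARC, Dlk1 had medians of 110 and 114 CPM and Meg3 of 457 and 487 CPM. Again the genotypes overlapped. The 4 members tested had log2 fold changes of −0.19 to 0.17 in the PVN and −0.11 to 0.15 in the ARC.

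The Peg3 domain showed the same overlap. Peg3 stood at 1285 to 2826 CPM (median 1910) in Nnat+/+ and 1094 to 3068 CPM (median 1857) in Nnat+/-p PVN libraries, and at 814 to 1446 CPM (median 1093) and 1051 to 1438 CPM (median 1297) in the ARC. Usp29, read from the same paternal control region, had PVN medians of 261 and 247 CPM, and Zim1, on the maternal copy, of 29.5 and 28.4 CPM. The 3 genes had log2 fold changes of 0.13 to 0.22 in the PVN and −0.06 to 0.10 in the ARC.

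Genes that act in growth and hormone signalling were likewise called in neither nucleus. Gnas had PVN medians of 1226 and 1274 CPM in Nnat+/+ and Nnat+/-p libraries, and ARC medians of 645 and 723 CPM. Grb10, an adaptor that dampens insulin receptor signalling, had PVN medians of 175 and 160 CPM. Igf2r, the receptor that clears IGF2, had PVN medians of 64.1 and 61.6 CPM and ARC medians of 38.1 and 43.4 CPM. Plagl1, a zinc finger transcription factor gene, had medians of 40.2 and 32.9 CPM in the PVN and 77.3 and 74.9 CPM in the ARC. Its genotypes overlapped too, over 16.3 to 128 and 13.0 to 51.2 CPM in the PVN. The highest Plagl1 values of the male PVN, 65.5 and 128 CPM, were in replicates 15 and 24, which have little Avp.

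Mest, a hydrolase gene linked to fat mass, and the overlapping Copg2 had PVN medians of 78.6 and 68.4 and of 51.5 and 42.3 CPM. Nap1l5, a single-gene domain within Herc3, had PVN medians of 1089 and 1042 CPM. Impact, which encodes a regulator of translation, had medians of 540 and 539 CPM in the PVN. Rasgrf1, a Ras exchange factor gene, had PVN medians of 441 and 492 CPM. Every one of these genes overlapped between genotypes in both nuclei.

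Peg10, a paternally read gene derived from a retrotransposon, came nearest to a genotype difference. In the male PVN on chow it had 278, 189 and 194 CPM in Nnat+/+ mice, 299, 229 and 417 CPM in non-obese Nnat+/-p mice, and 364, 363, 351 and 325 CPM in obese Nnat+/-p mice. All 4 obese mice lay above the 3 Nnat+/+ mice, and the non-obese mice overlapped them. The Nnat+/+ value of 194 CPM is that of replicate 15, which has little Avp. In females it had 525, 226, 250 and 370 CPM in Nnat+/+, 841, 255 and 517 CPM in non-obese and 862, 495 and 885 CPM in obese Nnat+/-p mice, with overlap. On HFD the 6 Nnat+/+ PVN libraries had 242 to 407 CPM (median 253) and the 3 Nnat+/-p libraries 295, 313 and 207 CPM, so that the HFD groups overlapped as well.

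The log2 fold change of Peg10 over the PVN was 0.56 (SE 0.17, 95% interval 0.22 to 0.89, 1.47-fold), which edgeR did not call after Benjamini-Hochberg adjustment (adjusted p = 0.768, rank 38 of 19824). Over 10 alternatives the value ran from 0.44 to 0.61 and the adjusted p from 0.00696 to 0.897, and with each library left out in turn from 0.48 to 0.63 and from 0.136 to 1.00 (Benjamini-Hochberg). DESeq2 called it (Benjamini-Hochberg adjusted p = 0.143), and so did edgeR with replicates 15 and 24 left out (0.59, adjusted p = 0.187). Without female replicates 2, 3 and 10 it was 0.44 (edgeR, adjusted p = 0.897).

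By group, the Peg10 log2 fold change against Nnat+/+ was 0.79 (SE 0.26) in obese and 0.60 (SE 0.27) in non-obese males, and 1.10 (SE 0.31) in obese and 0.61 (SE 0.31) in non-obese females, with adjusted p = 1.00 in each (edgeR, Benjamini-Hochberg). Subgroups of 1 sex share their Nnat+/+ controls. With each library left out in turn, the obese male value ran from 0.71 to 0.84 and the non-obese male value from 0.21 to 0.83. Without replicates 15 and 24 no member was called by edgeR in either male comparison. The female obese value was 0.79 without replicates 2, 3 and 10 (edgeR, Benjamini-Hochberg adjusted p = 0.459). On HFD it was −0.09 (SE 0.22), and the edgeR test of genotype by diet gave −0.78 (SE 0.31, Benjamini-Hochberg adjusted p = 1.00). In the ARC the value was −0.03 (95% interval −0.40 to 0.35) over both diets, and the difference between the nuclei was −0.27 (SE 0.24), not called. Sgce, the neighbour that is read outward from the same promoter region, had PVN medians of 15.6 and 14.6 CPM.

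The subgroups by weight gave no calls by edgeR among the members. In the male PVN on chow, 0 of 36 members were called in obese against Nnat+/+ mice (0.0256% of all genes), in non-obese against Nnat+/+ mice (0.0128%) and in obese against non-obese mice (0%). In the female PVN it was again 0 of 36 in the same 3 comparisons, where 0.0129%, 0.00646% and 0% of all genes were called. In the male ARC on chow it was 0 of 35, beside 0.0205%, 0.0136% and 0.00682%. These smaller comparisons bound the members less well. In the same order, intervals reached past a 2-fold change for 10, 14 and 12 of 36 members in the male PVN. It was 24, 21 and 22 of 36 in the female PVN, and 9, 6 and 6 of 35 in the ARC. Members with an unadjusted p under 0.05 numbered 1, 2 and 0 in the male PVN, 2, 1 and 1 in the female PVN, and 3, 0 and 1 in the ARC. Of all genes, 3.52%, 2.56% and 1.66% had such a p in the male PVN. The shares were 3.18%, 4% and 3.06% in the female PVN, and 2.59%, 1.9% and 4.25% in the ARC. DESeq2 called 1 member, Peg10, in obese against Nnat+/+ mice in the PVN of each sex and none in the other subgroups, and limma voom called it in the females.

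On HFD 0 of 37 members were called between genotypes in the PVN (0.00569% of all genes) and 0 of 36 in the ARC (0.0127%), and 0 by DESeq2. At an unadjusted p under 0.05 there were 0 members in either, beside 0.99% and 4.54% of all genes. The difference of the genotype effect between diets was called for 0 of 37 members in the PVN (0% of all genes) and 0 of 36 in the ARC (0.0127%). It was called for 0 of 39 members between the nuclei (0% of all genes) and for 0 of 37 between the sexes on chow (0%), where 27 of 37 intervals reached past a 2-fold difference. Female and male PVN libraries stand in different count tables, so sex and table cannot be told apart.

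Other imprinted genes and the genes that keep imprints gave the same counts. Of 40 further imprinted genes, 36 were tested in the PVN and 32 in the ARC, and 0 were called by edgeR (3 and 0 at an unadjusted p under 0.05). Of 22 genes that set or keep methylation imprints, such as Dnmt1, Zfp57 and Trim28, 0 of 21 in the PVN and 0 of 18 in the ARC were called (1 and 0 at an unadjusted p under 0.05).

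A few members were called between diets in Nnat+/+ males. These mice weighed 31.4 to 33.5 g on chow and 37.4 to 43.9 g on HFD, so diet and weight cannot be told apart. In the PVN, 1 of 37 members was called, where 1.43% of all genes were, and the members' median log2 change was 0.12 (−0.03 over all genes). The called gene was Igf2r, at 57.6, 27.2 and 41.9 CPM on chow and 48.2 to 95.7 CPM (median 71.4) on HFD. The diets overlapped by 1 chow library. Its log2 fold change was 0.85 (SE 0.23, 95% interval 0.39 to 1.30, 1.80-fold, edgeR Benjamini-Hochberg adjusted p = 0.132). The call was lost without replicate 14 (edgeR, Benjamini-Hochberg adjusted p = 0.281) or 26 (0.284) and with total counts as the scale (0.283), while without replicates 15 and 24 the log2 fold change was 1.05 (0.0797). Impact (0.48, SE 0.18) and Peg10 (0.50, SE 0.22) followed in order of p and were not called (edgeR, Benjamini-Hochberg adjusted p = 0.327 and 0.423). Markers of other regions and cells also differed without overlap between these groups. Their summed CPM was 30.1 to 226 on chow and 2.8 to 27.8 on HFD for forebrain excitatory neurons, 11.6 to 111 and 1.8 to 9.5 for the ventromedial hypothalamus, and 81.9 to 93.3 and 46.1 to 77.4 for oligodendrocyte precursors. Their part in the Igf2r call was not tested.

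In the ARC, 3 of 36 members were called, all higher on HFD, where 1.16% of all genes were called, and the members' median was 0.11 (0.02 over all genes). Plagl1 had 52.7 and 32.1 CPM on chow and 73.8, 64.9, 179, 80.9, 108 and 88.2 CPM on HFD, without overlap. Asb4, which encodes a ubiquitin ligase adaptor of hypothalamic neurons, had 40.9 and 26.6 CPM on chow and 64.3, 54.99, 123, 75.3, 77.8 and 61.4 CPM on HFD, again without overlap. Dlk1 had 95.8 and 71.5 CPM on chow and 81.3, 93.1, 319, 136, 204 and 125 CPM on HFD, and here the diets overlapped. Replicate 46 was the highest of the HFD libraries for all 3 genes.

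Plagl1 rose 2.57-fold (log2 1.36, SE 0.29, 95% interval 0.77 to 1.95, adjusted p = 0.0604), Asb4 by 1.32 log2 units (SE 0.33, adjusted p = 0.142) and Dlk1 2.05-fold (1.03, SE 0.29, adjusted p = 0.190), by edgeR with Benjamini-Hochberg adjustment. With only 2 chow libraries, none of the 3 was called without replicate 33 or without replicate 34, and Plagl1 alone was called without replicate 46. Dlk1 was also lost with total counts as the scale (edgeR, Benjamini-Hochberg adjusted p = 0.393), under which the median was −0.15 over all genes and −0.04 over members. The 2 chow Nnat+/+ libraries held the lowest Plagl1 values of all 20 ARC libraries, the others having 52.8 to 179 CPM. Replicate 15, labelled PVN but with ARC markers, had 65.5 CPM of Plagl1, within the range of the ARC libraries on HFD. For Plagl1 the difference of the genotype effect between diets was −0.79 (SE 0.34), which edgeR did not call (Benjamini-Hochberg adjusted p = 1.00).

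Markers of neighbouring regions moved with these ARC groups. The summed CPM of ventromedial hypothalamus markers was 50.0 to 87.8 in the 2 chow and 3.3 to 30.7 in the 6 HFD libraries of Nnat+/+ mice, and that of lateral hypothalamus markers 30.9 to 99.8 and 0.3 to 29.4. Markers of ARC neurons summed to 40.7 to 42.0 CPM on chow and 41.5 to 541 CPM on HFD, and oligodendrocyte markers to 773 to 906 and 191 to 677 CPM. The part of these differences in the 3 calls was not tested. In such bulk samples fewer cells of a type and less RNA per cell cannot be told apart.

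**Figure D4:**
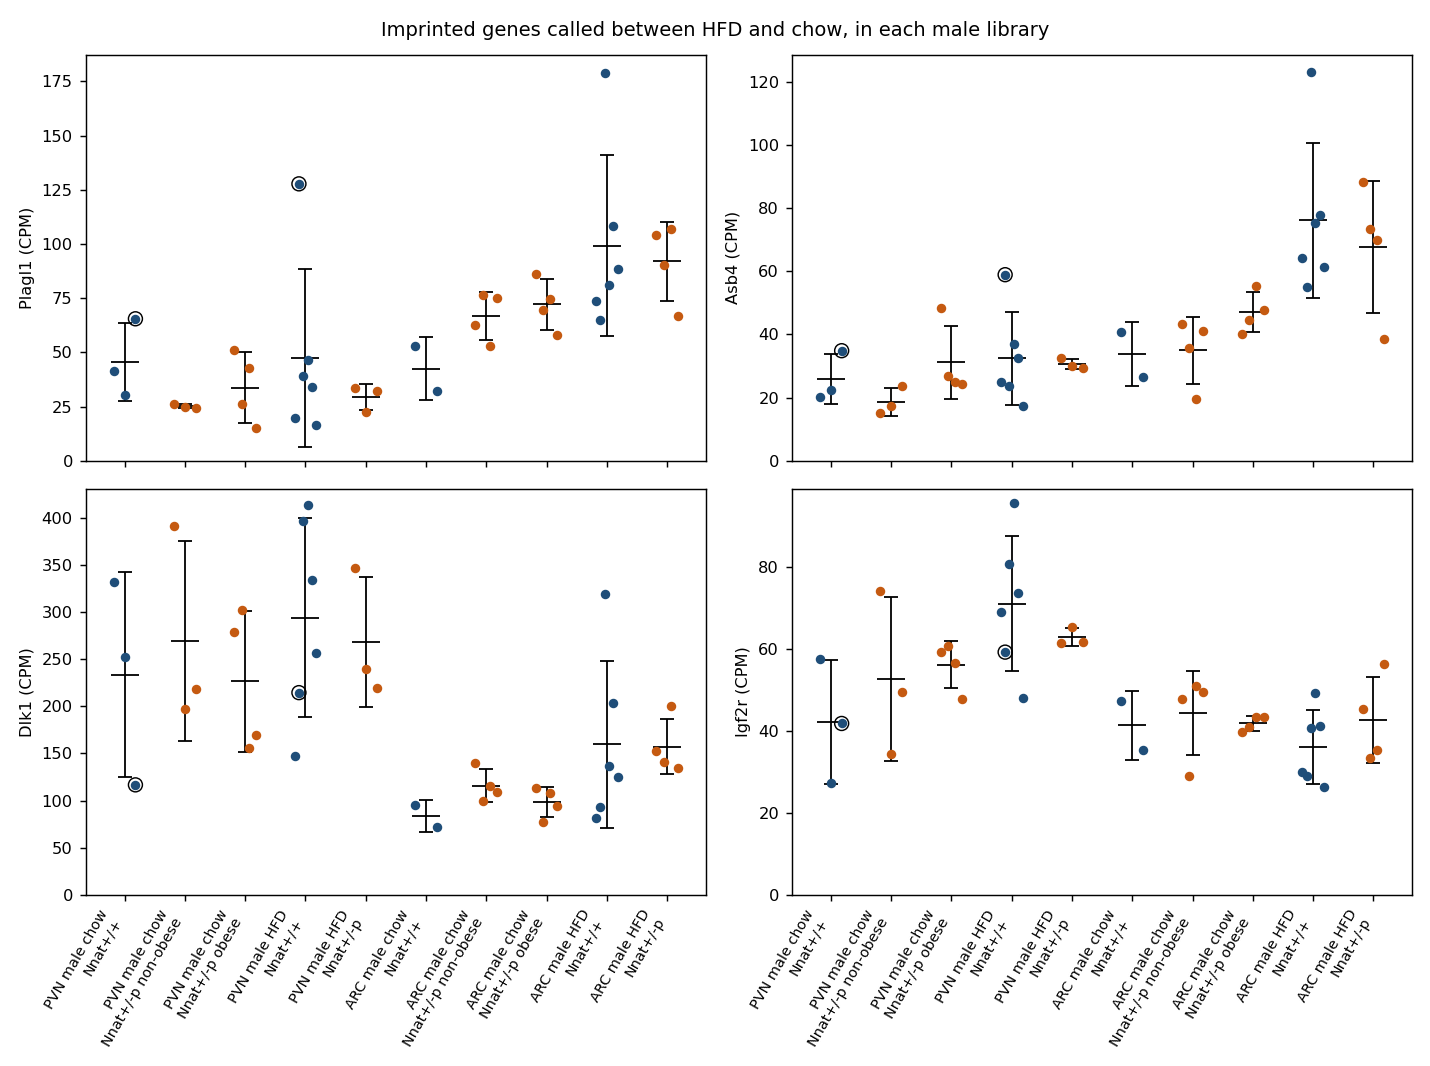
Plagl1, Asb4, Dlk1 and Igf2r (CPM) in each male library of the 10 groups, blue for Nnat+/+ and orange for Nnat+/-p, with the mean (bar) and SD (whiskers) and open circles around replicates 15 and 24. Among Nnat+/+ ARC libraries the 2 on chow lie below the 6 on HFD for Plagl1 and Asb4, and Dlk1 overlaps.

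The nuclei differed in more members than the genotypes did. Between the ARC (20 libraries) and the PVN (19 libraries) of males, 20 of 39 members without Nnat were called, 7 higher and 13 lower in the ARC, where 34.4% of all 21400 genes were called. Without replicates 15 and 24 it was 22 of 39, 9 higher and 13 lower. The scale set the split. The median over all genes was −0.13 log2 units with the TMM scale, and −0.46 with total counts, under which 29 of 39 members were called, 3 higher and 26 lower. The members' own median was −0.11 with TMM and −0.45 with total counts. Counted over 5 scalings and tools, 3 members were called higher in all (Plagl1, Asb4 and Ppp1r9a) and 12 lower in all. The ARC and PVN libraries stand in different tables, so nucleus and table cannot be told apart.

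Plagl1 had 14.9 to 118 TMM-scaled CPM (median 28.6) in the PVN and 35.9 to 188 (median 88.4) in the ARC. The nuclei overlapped, but without replicates 15 and 24 the PVN went no higher than 42.7. It was 2.55-fold higher in the ARC (log2 1.35, SE 0.17, 1.48 above the median gene, edgeR Benjamini-Hochberg adjusted p = 7.64e-09). Asb4 had 12.0 to 54.3 (median 24.1) in the PVN and 17.6 to 130 (median 56.5) in the ARC, where 10 of 20 libraries lay above every PVN library (log2 1.18, SE 0.14, 1.31 above the median gene).

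Ppp1r9a, which encodes the actin-binding neurabin, had 160 to 300 TMM-scaled CPM (median 197) in the PVN and 288 to 385 (median 322) in the ARC, with 17 of 20 ARC libraries above every PVN library. The highest PVN value was that of replicate 15. Its log2 difference was 0.61 (SE 0.09, 0.74 above the median gene). Asb4 and Ppp1r9a lie in a single cluster on chromosome 6 with Peg10 and Sgce, which were not called in the same direction in all 5 scalings. Sgce was 0.43 (SE 0.15) with TMM and 0.09 with total counts, uncalled, and Peg10, uncalled with TMM (0.10, SE 0.11), was −0.24 and called lower with total counts. Ube3a at 0.23 (SE 0.09) was the fifth of the higher members with TMM, and with total counts it was −0.10, uncalled.

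Among the members lower in the ARC, Mest had 33.5 to 86.9 TMM-scaled CPM (median 58.5) in the PVN and 16.5 to 51.7 (median 30.9) in the ARC, and 13 of 20 ARC libraries lay below every PVN library. It differed by −0.94 log2 units (SE 0.12, −0.81 against the median gene, edgeR Benjamini-Hochberg adjusted p = 4.12e-08). Of the maternally read noncoding RNAs of the Dlk1 domain, Meg3 (512 to 1909 in the PVN, 258 to 827 in the ARC) differed by −0.81 (SE 0.13). Mirg (11.5 to 45.5 and 8.59 to 28.7) differed by −0.85 (SE 0.17). Rian was not called with TMM (0.14, SE 0.11), called higher by voom (0.19) and called lower with total counts (−0.18). Dlk1, on the paternal copy, was also lower in the ARC (−0.76, SE 0.12), with 114 to 332 in the PVN and 79.9 to 335 in the ARC. The nuclear RNA Malat1 had 2105 to 8031 CPM in the male PVN libraries and 1352 to 3154 CPM in the ARC libraries. The part of nuclear RNA in the differences of Meg3 and Mirg was not tested.

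At the lowest levels, Phlda2, a placental growth gene, differed by −2.04 (SE 0.89, adjusted p = 0.110) and Igf2 by −1.43 (SE 0.60, adjusted p = 0.0969, edgeR with Benjamini-Hochberg adjustment). Both had libraries at 0 in each nucleus, with medians of 0.353 and 0 TMM-scaled CPM in the PVN and ARC for Phlda2 and 1.39 and 0.590 for Igf2. Phlda2 was called in 3 of the 5 scalings and Igf2 in all. Leaving out 1 library moved Phlda2 to −1.30 (without replicate 13, edgeR Benjamini-Hochberg adjusted p = 1.00) or −2.95 (without replicate 53, adjusted p = 0.0335). The other members lower in the ARC under all 5, H13, Inpp5f, Kcnq1ot1, Gnas, Nap1l5, Rasgrf1 and Blcap, lay between −0.48 and −0.26. H19 had too few counts for an estimate.

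**Figure D5:**
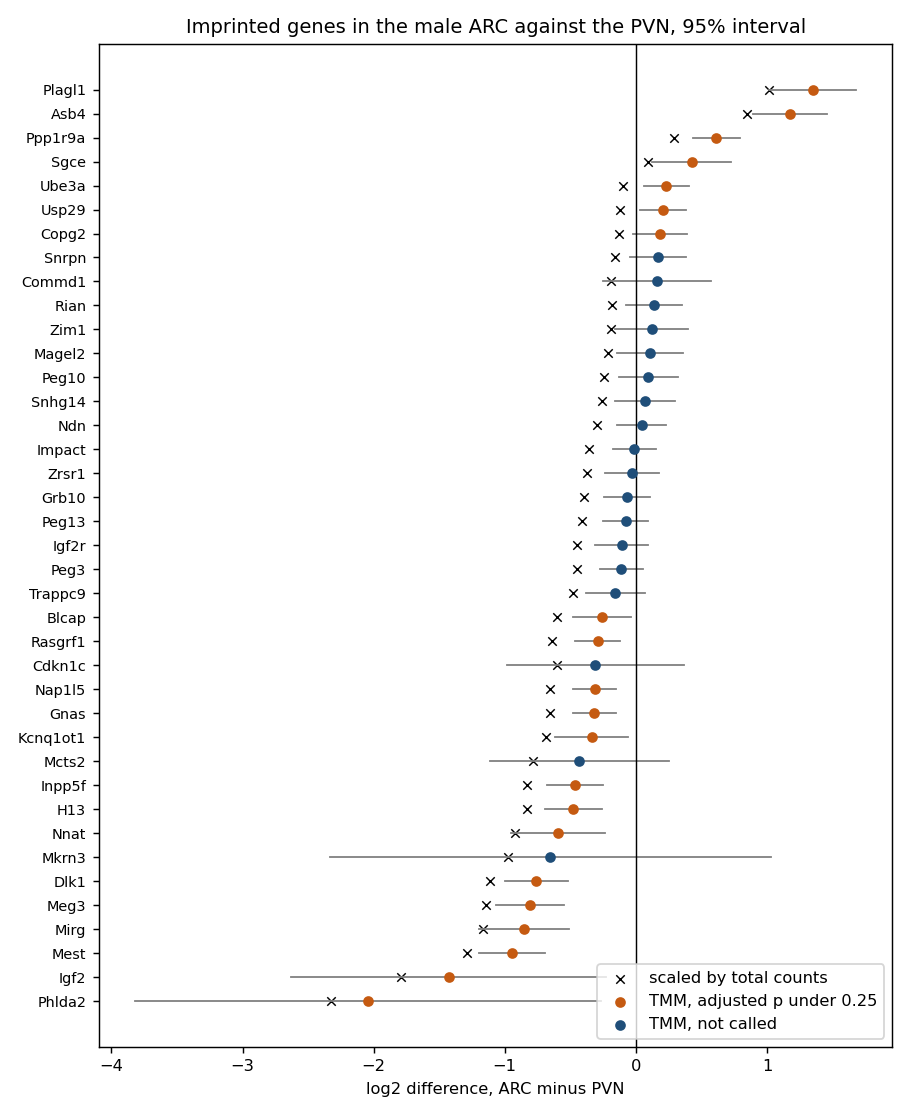
Log2 difference of ARC minus PVN in males with its 95% interval for each member tested but H19, orange where called with the TMM scale and blue where not, and black crosses for the same difference with total counts as the scale. Plagl1, Asb4 and Ppp1r9a lie above 0 on both scales, while Usp29, Ube3a and Copg2 are above 0 with TMM and below 0 with total counts.

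Cell markers differed between the nuclei as well. With TMM, the log2 difference of ARC minus PVN was −7.73 for Avp and −5.63 for Sim1, 3.98 for Pomc and 5.25 for Agrp, and −1.44 for the endothelial marker Cldn5, each called. The part of cell makeup in the members' differences was not tested. Of the further imprinted genes 11 of 36 were called between the nuclei with TMM, where 34.4% of all genes were. Of the 11, 4 were higher in the ARC, among them Ddc (1.03) and Htr2a (0.87), and 7 lower, among them Calcr (−1.02) and Ano1 (−1.01). Of the genes that set or keep imprints 6 of 20 were called, beside the same 34.4% of all genes. Tet1 was higher (0.32) and Zfp57 (−1.04), Tet2, Dnmt3a, Dnmt1 and Tet3 were lower.

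Among genes of at least 5 CPM, the median coefficient of variation within a group was lower over members than over all genes in 13 of 13 groups, which was not tested. Beyond that cut, members and all genes were not matched by level, and largely the same members recur in every group. The gap was widest in the obese ARC group, at 13.5% over members and 23.8% over all genes. In 6 Nnat+/+ HFD libraries it was 23.9% over members and 25.1% over all genes in the PVN, and 27.0% and 29.4% in the ARC. Plagl1 varied most in the PVN group (87.0%), where replicate 24 holds 128 CPM, and Dlk1 in the ARC group (55.7%), where replicate 46 holds 319 CPM. Rian varied least in both, by 4.63% and 8.19%.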

How the data were processed

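Read counts per gene were deposited by the authors as whole numbers without normalization, in 1 table each for the male PVN, the male ARC and the female PVN, from total RNA of laser-captured tissue. The submitters' processing notes name STAR 2.5.0a and GRCm38, while the counting tool, the annotation release and the strand setting are not given in the sources used here. Of 53379 gene identifiers, 53274 matched a symbol in GENCODE M21. Groups came from the labels, with the weight classes as in the methods. Of 53 libraries 4 were left out, replicates 5, 7 and 35 for low counts and replicate 32 because its labels and its table name different nuclei. The labels call each library a separate sample. Some labelled weights are shared or conflict, and p-values measure the spread between these samples.

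Counts were fitted over all genes in R 4.3.3 with edgeR 4.0.16 (filterByExpr, minimum count 10, TMM factors, quasi-likelihood test), with the 3 chow groups of a nucleus and sex, the 5 male groups of a nucleus, the 10 male groups or, for the pooled genotype comparisons, sex and diet as a stratum. Benjamini-Hochberg adjustment ran over all genes tested, and genes were called at an adjusted p under 0.25. Intervals are 95% intervals of the fit. CPM are counts per 1000000 counts on genes. Alternatives were DESeq2 1.42.0, limma 3.58.1 (voom with sample weights), RLE factors, every gene with a total count over 1, and an adjusted p under 0.05. Others were low-count libraries included, libraries left out, replicates 39 and 40 summed, the 5 male groups in a single fit, and a weight block. Alternatives chosen after seeing the data left out replicates 15 and 24, or 2, 3 and 10, or scaled by total counts. Fits other than that of the 10 male groups were run on simulated data, each for a single comparison, and the outcome is not given here.

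Members and lists were chosen with earlier results of these data known. Fold changes are given for Nnat and Blcap between genotypes, for called members, for members with an unadjusted p under 0.05 in a pooled genotype comparison, for the 5 largest differences in each direction between nuclei and for the 3 smallest p in each diet comparison. Other genes named with a fold change were chosen after their values were seen. Pairs of replicates differed by more than sampling noise (chi-square per degree of freedom 8.36 or more over 76 pairs).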

Additional observations from a re-analysis of the deposited data

Results flagged for a closer look

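Over 24 of the genes, 168 groups of 4 to 6 libraries were searched for a library far from the others of its group, and 9 were found (5.36%, where chance gives about 5%). Plagl1 had 128 CPM in replicate 24 of the male PVN on HFD (Nnat+/+), the library with 0.896 CPM of Avp. Asb4 had 123 CPM in replicate 46 of the ARC on HFD (Nnat+/+) and 48.5 CPM in replicate 16 of the obese male PVN. Replicate 39 of the non-obese ARC was apart for Igf2, at 5.41 CPM, and for Igf2r, which was lowest there at 29.1 CPM. Phlda2 had 2.02 CPM in replicate 53 of the Nnat+/-p ARC on HFD and 1.57 CPM in replicate 41 of the obese ARC. In the obese ARC, Blcap was lowest in replicate 36, at 48.7 CPM, and Ppp1r9a was lowest in replicate 37, at 301 CPM.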

How the results depend on the processing

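Genotype, obesity and interaction comparisons had 0 members called under 410 of 424 alternatives over 17 comparisons, and at most 3 under the other 14. Most of the 424 left out a single library, and an adjusted p under 0.05 could add no call. They reuse the same libraries and are not separate tests. In the PVN genotype comparison 1 member, Peg10, was called by DESeq2, with every gene, without replicates 15 and 24 and without the libraries of conflicting weight, and 0 to 1 with each replicate left out (1 without 29 or 31). In obese against Nnat+/+ mice DESeq2 called 1 in the male PVN and 1 in the female PVN, where voom called 1 and the test of every gene called 3. That test also called 3 between obese and non-obese females, 1 in genotype by nucleus and 1 in genotype by sex, which gave 0 to 2 with each replicate left out (2 without 10, Meg3 and Snhg14). For diet in the PVN, DESeq2 and voom called 2, an adjusted p under 0.05 and total counts 0, and leaving out replicates gave 0 to 1. For diet in the ARC, voom and the inclusion of low-count libraries called 5, an adjusted p under 0.05 called 0, and leaving out replicates gave 0 to 3 (0 without 33 or 34, 1 without 46). ARC against PVN kept 13 calls at an adjusted p under 0.05. With total counts Ube3a, Copg2 and Usp29 turned to −0.10, −0.13 and −0.12 log2 units. The cause of these changes was not tested.

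Calls over all genes in the PVN genotype comparison numbered 11, against 120 by DESeq2, 3342 with every gene, 134 without replicates 15 and 24, 101 without conflicting weights, 5 at an adjusted p under 0.05 and 3 by voom or without replicates 2, 3 and 10. In the ARC they numbered 2, against 148 by DESeq2. For Nnat, the female non-obese comparison with low-count libraries gave an adjusted p of 0.380 (edgeR, Benjamini-Hochberg), and the other alternatives kept the call.

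Males of both nuclei share weights in the labels, and a replicate block on 15 shared weights called 22 of 38 members between the nuclei (8 higher, 14 lower) and 0 in genotype by nucleus. The deviations of same-weight libraries correlated by −0.023 to 0.11 (median 0.067, 2 of 15 over 0.1), and the labels do not say whether a shared weight marks a single mouse.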
